A study of Mus musculus with 12 samples.

Results

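Transcript levels of 40 interferon-stimulated genes were examined in mouse CD4+ T cells cultured under TH1 or TH2 conditions, with or without deletion of Itgav, which encodes the αv integrin chain. The 40 genes were chosen by name from a table of 26202 gene symbols, as genes known to be induced by interferons, leaving aside STAT, IRF and antigen-processing genes. All 40 were found in the table, and 37 of them passed the filter on low values and were tested. RNA was sequenced from 12 libraries in 4 groups of 3, which are TH1 control, TH1 KO, TH2 control and TH2 KO. Naive CD4+ T cells were purified from spleens of C57BL/6 mice that carried Cd4 CreERT2, a tamoxifen-dependent Cre recombinase expressed from the Cd4 locus. Control cells came from Cd4 CreERT2 mice, so they carried the recombinase too, and KO cells came from Itgav fl/fl mice crossed to Cd4 CreERT2. The ages of the mice were not given in the sources used here. All cultures received anti-CD3, anti-CD28 and IL-2. TH1 cultures also received IL-12 and a neutralising antibody to IL-4, and TH2 cultures received IL-4 and a neutralising antibody to interferon-γ. After 5 days live CD4+ cells were sorted, with no gate on αv, so that cells which had not deleted Itgav could remain in the KO libraries. The study's methods list 4-hydroxytamoxifen, which activates this recombinase, among the reagents added to such cultures. The labels number the libraries within each group but name no mouse or culture, so the p-values measure the spread between these libraries, which may be technical.

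Interferons act through receptors on the cell surface. Type I interferons bind IFNAR1 and IFNAR2 and act mainly through the interferon-stimulated response element (ISRE) in DNA. Interferon-γ, the type II interferon made by TH1 cells, binds IFNGR1 and IFNGR2 and acts mainly through the γ-activated site (GAS). The proteins made in response include enzymes and RNA-binding proteins that restrict viruses, and large GTPases that act against pathogens inside cells. Many interferon-stimulated genes respond to both types, and guanylate-binding proteins and immunity-related GTPases are well known as targets of interferon-γ.

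Of the 40 genes, 29 had an entry in the RefSeq table of promoters (GRCm38.p6), and the 250 bases before each annotated start were searched on both strands for the ISRE as GAAANNGAAA and for the GAS as TTCNNNGAA. Usp18, Dhx58, Zbp1 and Gbp4, which rose in TH2 KO cells as described below, had no entry and were not searched. An ISRE match was found for 16 of the 29 (55.2%), against 3.46% of the 27025 genes in the table. A GAS match was found for 9 of the 29 (31.0%), against 8.13% of all genes. Both motifs occurred together for 6 of the 29 (20.7%), against 0.459% of all genes. A match describes the letters of the window only and shows no binding. Windows around the matches of 8 genes are printed to show how these elements sit in genes of different roles that are described below. Each is written 5′ to 3′ on the strand of the gene with the matching bases in capitals, and an ISRE on the opposite strand appears as its reverse complement, starting with TTTC.
Isg15: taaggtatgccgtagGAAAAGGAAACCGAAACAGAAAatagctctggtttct
Ifit1: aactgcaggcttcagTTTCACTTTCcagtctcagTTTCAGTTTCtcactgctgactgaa
Cxcl10: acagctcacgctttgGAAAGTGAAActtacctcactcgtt
Gbp2: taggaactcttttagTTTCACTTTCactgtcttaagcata
Gbp7: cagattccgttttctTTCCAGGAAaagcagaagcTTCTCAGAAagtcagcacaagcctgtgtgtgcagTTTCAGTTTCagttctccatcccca
Igtp: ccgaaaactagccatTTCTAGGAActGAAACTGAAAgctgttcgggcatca
Irgm2: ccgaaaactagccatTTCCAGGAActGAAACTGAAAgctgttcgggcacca
Isg20: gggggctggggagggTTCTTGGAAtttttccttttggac

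The Isg15 window (chr4:156200860-156200911, minus strand) held 3 overlapping ISRE matches, between 78 and 57 bases before the start. The Ifit1 window (chr19:34640770-34640828, plus strand) held 2 separate ISRE matches, and the windows of Cxcl10 (chr5:92349078-92349117, minus strand) and Gbp2 (chr3:142620589-142620628, plus strand) held 1 each. The start that GENCODE annotates for Gbp2, at 142620602, falls inside its window. The GENCODE start of Irgm2, at 58199618, lies upstream of the Irgm2 window, which is therefore inside the gene by that annotation. The Gbp7 window (chr3:142530215-142530307, plus strand) held 2 GAS matches and 1 ISRE. The windows of Igtp (chr11:58199496-58199546) and Irgm2 (chr11:58214887-58214937), which are neighbours on the plus strand, each held a GAS followed after 2 bases by an ISRE, and they differed at 2 of 51 bases. The window of Isg20 (chr7:78913336-78913374, plus strand) held a GAS and no ISRE.

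Each library held between 6344184 and 13312234 reads in genes, so that 3 reads corresponded to between 0.225 and 0.473 CPM, the count of a gene scaled to a fixed library total. Intervals from such counts would cover counting error only, and values below this floor are given as at or near 0. Libraries of 1 group differed from each other by more than sampling noise, with chi-square per degree of freedom between 18.5 and 76.3, and all 12 were kept as separate samples. Itgav fell in both KO groups. In TH2 cells it was at 195 to 313 CPM in control libraries and 43.5 to 60.5 CPM in KO libraries, and in TH1 cells at 154 to 228 and 21.3 to 42.8 CPM. All 5 T cell markers were detected in every group, with sums of 5647 to 6484 CPM. TH1 markers summed to 6689 CPM or more in every TH1 library and to at most 544 CPM in TH2 libraries, while TH2 markers summed to at most 76.3 CPM in TH1 libraries and at least 1461 CPM in TH2 libraries. Siglech of plasmacytoid dendritic cells, Lyz2 of myeloid cells, Klrb1c and Ncr1 of NK cells, and 4 haemoglobin genes were at 0 in all 12 libraries. Other markers of these cell types were detected, among them Cd8b1 of CD8 T cells at 3.44 to 17.7 CPM in all libraries. Cd68 of myeloid cells had means of 23.4 and 23.0 CPM in TH2 control and KO cells. Eomes had means of 4.92 and 6.05 CPM in TH1 control and KO cells. Some dendritic and myeloid markers were detected mainly in single libraries. Itgax and Cd14 each reached 6.05 CPM in TH2 control 1, Xcr1 5.37 CPM in TH2 KO 3 and Csf1r 3.04 CPM in TH1 KO 3. Flt3 was spread more widely, at 0.892 to 2.03 CPM in TH1 control libraries and up to 3.15 CPM in TH2 libraries, but at 0 in all TH1 KO libraries. In sorted bulk samples, fewer cells that express a gene and less RNA of it per cell cannot be told apart.

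**Figure D1:**
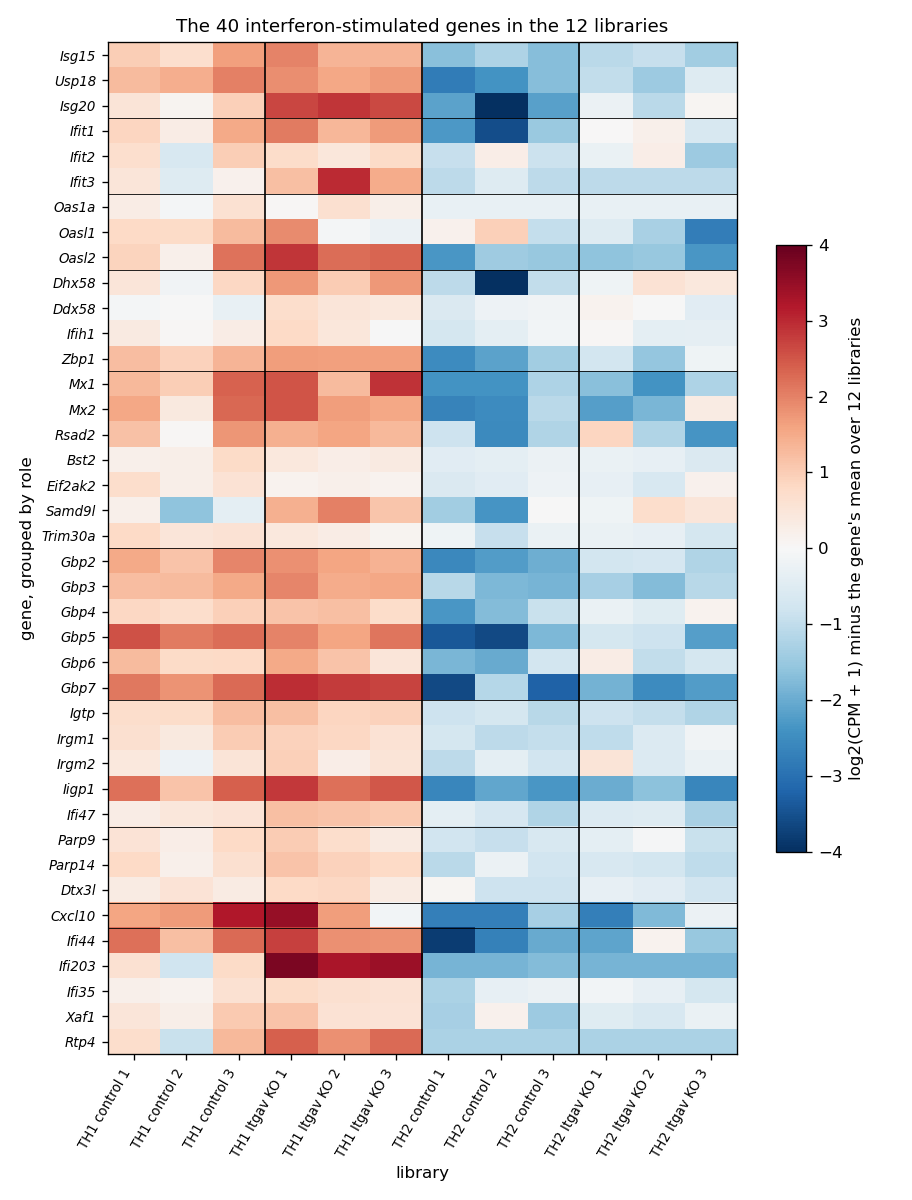
Levels of the 40 interferon-stimulated genes in the 12 libraries, grouped by role. Colour gives log2(CPM + 1) minus the mean of that gene over the 12 libraries, with red above and blue below the mean. The 6 TH1 libraries on the left were mostly above the mean and the 6 TH2 libraries on the right mostly below it, and Isg20, Ifit1 and Gbp2 were less far below it in TH2 KO libraries than in TH2 control libraries.

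The subset of the cells set apart nearly all of these genes. Differences below are in log2(CPM + 1) ± standard error, from a limma fit over all 9121 tested genes, and a gene is said to rise or fall where its Benjamini-Hochberg adjusted p over those genes was under 0.05. The minimum level was 10 CPM in 3 or more libraries. Of the 37 tested genes, 15 reached it in TH1 libraries but had fewer than 3 TH2 libraries at 10 CPM. The comparison of subsets is therefore given first for the 22 genes that reached it in both. Isg20 and Dhx58 are among the 22 with 0 TH2 control libraries at 10 CPM, so in TH2 cells they reached it through KO libraries. Of these 22, 21 were lower in TH2 than in TH1 control cells and none was higher, with a median difference of −1.39, while 9.75% of all tested genes were lower, 8.58% were higher and the median was −0.01. Ddx58 was the exception, with 59.3 ± 5.95 CPM in TH1 control and 52.4 ± 7.96 CPM in TH2 control cells (SD, n = 3; −0.18 ± 0.22, adjusted p = 0.63). In KO cells 19 of the 22 were lower in TH2 cells, with a median of −1.23, against 11.6% of all tested genes lower and 12.2% higher. Among all 40 genes, with no filter on level, the 3 TH2 control libraries were all below the 3 TH1 control libraries for 35. This held for 33 of the 37 tested genes and for 17.1% of all tested genes.

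**Figure D2:**
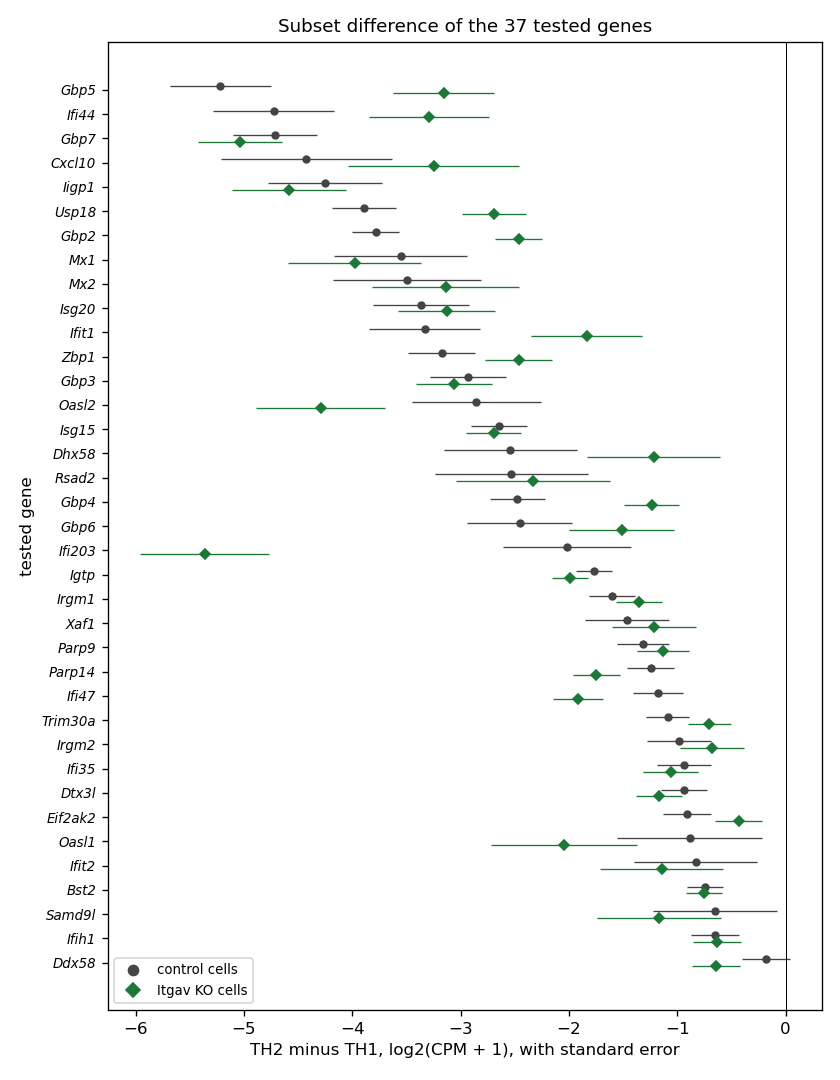
Difference between TH2 and TH1 cells for the 37 tested genes, in log2(CPM + 1), with circles for control cells, diamonds for KO cells and bars for the standard error. Every point lies below 0, from −0.18 for Ddx58 to −5.22 for Gbp5 among control cells, and 15 of the genes reached the minimum level through TH1 libraries alone.

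In TH2 KO cells a small part of the set differed from TH2 control cells, and only upwards. Isg20, Usp18, Ifit1, Dhx58, Zbp1, Gbp2 and Gbp4 rose in TH2 KO cells, which is 7 of 37 tested genes, and none fell, where 1.92% of all tested genes rose and 1.67% fell. The median difference of the 37 was 0.34, against 0.04 for all tested genes, and 30 of the 37 differences were above 0, against 53.4% of all genes. By limma 13 of the 37 had an unadjusted p under 0.05, against 1743 of all 9121 tested genes, and of the 13 Oasl1 alone was lower in KO cells. None of the 37 had reached the minimum level through TH2 KO libraries alone. The 3 KO libraries were all above the 3 control libraries for 6 of the 37 tested genes, namely the risen genes other than Zbp1, and below them for none, where 9.97% of all tested genes lay wholly above and 8.76% wholly below. In TH1 KO cells 2 of 37 genes, Isg20 and Ifi203, rose and none fell, where 0.329% of all tested genes rose and 0.515% fell. Ifi203 reached the minimum level through the TH1 KO libraries alone, and of the 22 genes that reached it in both subsets 1, Isg20, rose. The median difference of the 37 was 0.34, against 0.00 for all genes, and 31 of the 37 were above 0, against 50.0% of all genes. That median was 0.12 without TH1 control 2 and 0.18 without TH1 KO 1. The unadjusted p was under 0.05 for 6 genes, all higher in KO cells, against 920 of all tested genes. Libraries did not overlap for 14 of the 40 genes in TH1 cells, with 12 higher and 2 lower in KO. Of the 37 tested genes 10 lay wholly above and 2 wholly below, where 10.2% of all tested genes lay wholly above and 10.6% wholly below. Isg20 was the 1 gene that rose in both subsets. A direct limma test of the difference between the subsets in the knockout effect passed for none of the 37 genes, where 0.406% of all tested genes passed, and 6 of the 37 had an unadjusted p under 0.05, against 1002 of all tested genes.

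**Figure D3:**
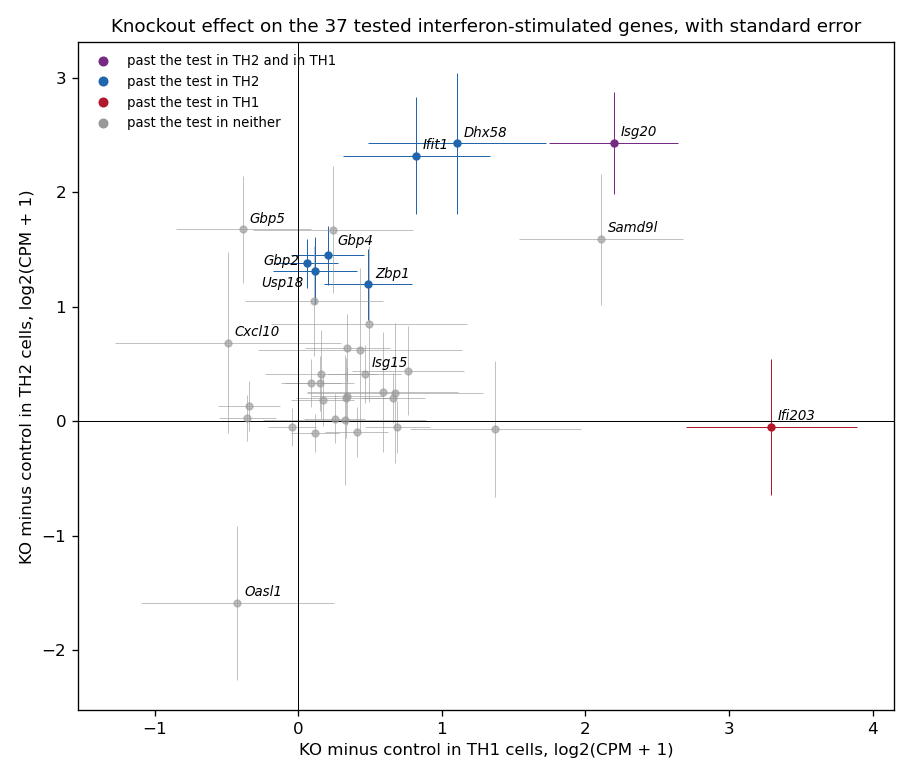
Knockout effect on the 37 tested genes in TH1 cells (horizontal axis) and TH2 cells (vertical axis), each as KO minus control in log2(CPM + 1) with its standard error as a bar. Isg20 lies at 2.20 and 2.43, Ifi203 at 3.30 and −0.05, and Gbp2, Gbp4 and Usp18 lie close to 0 on the horizontal axis and between 1.32 and 1.45 on the vertical axis.

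Isg15 encodes a ubiquitin-like protein that is attached to other proteins during an interferon response. Its level in TH1 control libraries was 144, 116 and 225 CPM, and in TH1 KO libraries 287, 188 and 184 CPM. In TH2 control libraries it was 21.6, 29.9 and 21.4 CPM, and in TH2 KO libraries 33.7, 37.04 and 27.0 CPM. All TH2 libraries were thus well below all TH1 libraries, and the 2 genotypes overlapped within each subset. Isg15 was lower in TH2 than in TH1 cells in both genotypes (−2.65 ± 0.25 in control and −2.69 ± 0.25 in KO cells, adjusted p = 1.0e-07 and 7.2e-08), and its difference between KO and control did not pass in TH2 (0.41 ± 0.25, adjusted p = 0.40) or TH1 cells (0.46 ± 0.25, adjusted p = 0.58).

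Usp18 removes ISG15 from proteins and restrains signalling at the type I interferon receptor. In TH2 cells it was at 7.32, 9.99 and 16.9 CPM in control and 28.5, 20.2 and 39.4 CPM in KO libraries. The lowest KO library was above the highest control library. Usp18 rose 2.58-fold by the ratio of mean CPM (1.32 ± 0.29, adjusted p = 0.015). In TH1 cells it stood at 139, 160 and 236 CPM in control and 211, 168 and 189 CPM in KO libraries, which overlapped (0.12 ± 0.29, adjusted p = 0.95). The difference between these effects was 1.20 ± 0.41 and did not pass (adjusted p = 0.26). Without TH2 KO 3, the library with the most Usp18 among TH2 libraries, the rise did not pass (adjusted p = 0.075), nor did it with no filter, with only the groups compared in the fit or with no variance trend (adjusted p = 0.078, 0.19 and 0.081).

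Isg20 encodes an exonuclease that degrades single-stranded RNA. It was at 5.52, 0.568 and 5.37 CPM in TH2 control and 23.3, 12.8 and 29.6 CPM in TH2 KO libraries. In TH1 cells it was at 40.5, 29.7 and 54.6 CPM in control and 182, 208 and 178 CPM in KO libraries. Each KO group lay wholly above its control group, and the TH1 KO libraries were the highest of the 12. Isg20 rose by 2.43 ± 0.45 in TH2 cells (adjusted p = 0.0036) and by 2.20 ± 0.45 in TH1 cells (adjusted p = 0.017), which corresponds to mean CPM 5.73 and 4.54 times those of control. The effects differed by 0.24 ± 0.63, with a 95% interval from −1.08 to 1.55 (adjusted p = 0.93). The rise in TH2 cells passed whichever library was left out, but not with no filter, with only the groups compared or with no variance trend (adjusted p = 0.051, 0.088 and 0.051). The rise in TH1 cells did not pass without TH1 control 1, TH1 control 2, or any 1 of the TH1 KO libraries, with adjusted p between 0.062 and 0.13, while its size stayed between 1.98 and 2.24.

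The IFIT proteins bind RNA that lacks the marks of host messenger RNA. Ifit1 was at 1.38, 0 and 3.18 CPM in TH2 control and 10.9, 12.6 and 6.61 CPM in TH2 KO libraries. It was at 20.1, 13.4 and 32.4 CPM in TH1 control and 49.1, 28.3 and 37.2 CPM in TH1 KO libraries. The TH2 genotypes did not overlap, whereas the TH1 genotypes did. Ifit1 rose in TH2 KO cells (2.32 ± 0.51, adjusted p = 0.014), but the rise did not pass without TH2 control 2, which held no read of Ifit1 (adjusted p = 0.057), or without TH2 KO 2 (adjusted p = 0.059). The rise also did not pass with no filter or with no variance trend (adjusted p = 0.076 and 0.054). With only the groups compared in the fit, Ifit1 was below the minimum level and was not tested. In TH1 cells the difference was 0.82 ± 0.51 (adjusted p = 0.66). Its neighbour Ifit2 stood at means of 4.88 and 5.15 CPM in TH2 control and KO cells and 9.77 and 11.2 CPM in TH1 control and KO cells, and passed in no comparison. Ifit3 was too low to test. It was detected in all 6 TH1 libraries, at 0.451 to 1.91 CPM in control and 3.82 to 15.6 CPM in KO libraries, and among TH2 libraries in control 2 alone.

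OAS enzymes answer double-stranded RNA by making a messenger that activates RNase L, and the OASL proteins resemble them. Oas1a was at or below 0.912 CPM in every TH1 library, had no read in any TH2 library and was not tested. Oasl1 averaged 11.5 CPM in TH1 KO cells and was lower in TH2 KO cells at 1.84 CPM (−2.05 ± 0.67, adjusted p = 0.031) and passed in no other comparison. The TH1 KO libraries were at 24.3, 5.37 and 4.74 CPM, so that mean rested mostly on KO 1. Oasl1 reached the minimum level through TH1 libraries. Its difference between subsets in KO cells did not pass without TH1 KO 1, TH2 KO 2 or TH2 KO 3, nor with no filter or no variance trend. Among TH2 cells it stood at 6.58, 12.3 and 2.52 CPM in control and 3.79, 1.73 and 0 CPM in KO libraries (−1.59 ± 0.67, adjusted p = 0.20). That was the lowest TH2 knockout difference among the 37 genes. Oasl2 was at 22.6 to 36.1 CPM in TH1 KO and 4.88 to 22.0 CPM in TH1 control libraries (1.37 ± 0.59, adjusted p = 0.42), and below 1 CPM in all 6 TH2 libraries.

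Among the sensors of foreign nucleic acid, Dhx58 encodes LGP2, Ddx58 encodes RIG-I and Ifih1 encodes MDA5, which are related helicases that recognise viral RNA, and Zbp1 binds nucleic acid in the Z form. Dhx58 was at 9.34, 0 and 9.75 CPM in TH2 control and 17.9, 30.9 and 27.7 CPM in TH2 KO libraries, and at 28.7, 18.4 and 36.9 CPM in TH1 control and 70.0, 42.3 and 69.7 CPM in TH1 KO libraries. The KO libraries were wholly above their controls in both subsets. The rise passed in TH2 cells (2.43 ± 0.62, adjusted p = 0.033) and not in TH1 cells (1.11 ± 0.62, adjusted p = 0.59). In TH2 cells it rested in part on control 2, which held no read of Dhx58. Without that library the difference was 1.30 and did not pass (adjusted p = 0.074), nor did it pass without KO 1, KO 2 or KO 3 (adjusted p = 0.052, 0.10 and 0.096). With all libraries kept, it did not pass with a pseudocount of 0.25 or with no filter (adjusted p = 0.059 and 0.17). The same held with only the groups compared and with no variance trend (adjusted p = 0.13 for each).

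Zbp1 was at 9.55, 12.5 and 22.0 CPM in TH2 control and 35.1, 19.4 and 52.5 CPM in TH2 KO libraries. KO 2 was below control 3, so these groups overlapped, though the mean rose 2.43-fold (1.20 ± 0.31, adjusted p = 0.036). This call passed under 9 of 22 alternative settings, and leaving out any 1 of 9 single libraries ended it, with adjusted p up to 0.16 among them. In TH1 cells Zbp1 was at 139, 113 and 151 CPM in control and 189, 185 and 187 CPM in KO libraries (0.49 ± 0.31, adjusted p = 0.67). Ddx58 was at 52.6 to 63.9 CPM in TH1 control and 86.2 to 107 CPM in TH1 KO libraries, a difference that did not pass although the groups did not overlap (0.66 ± 0.22, adjusted p = 0.20), and it stood at 52.4 and 60.8 CPM on average in TH2 control and KO cells. Ifih1 differed little by genotype in TH2 (0.18 ± 0.22) or TH1 cells (0.17 ± 0.22). Ifih1 and Zbp1 lie on chromosome 2, as does Itgav, at distances of 21.1 and 89.4 Mb from it.

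**Figure D4:**
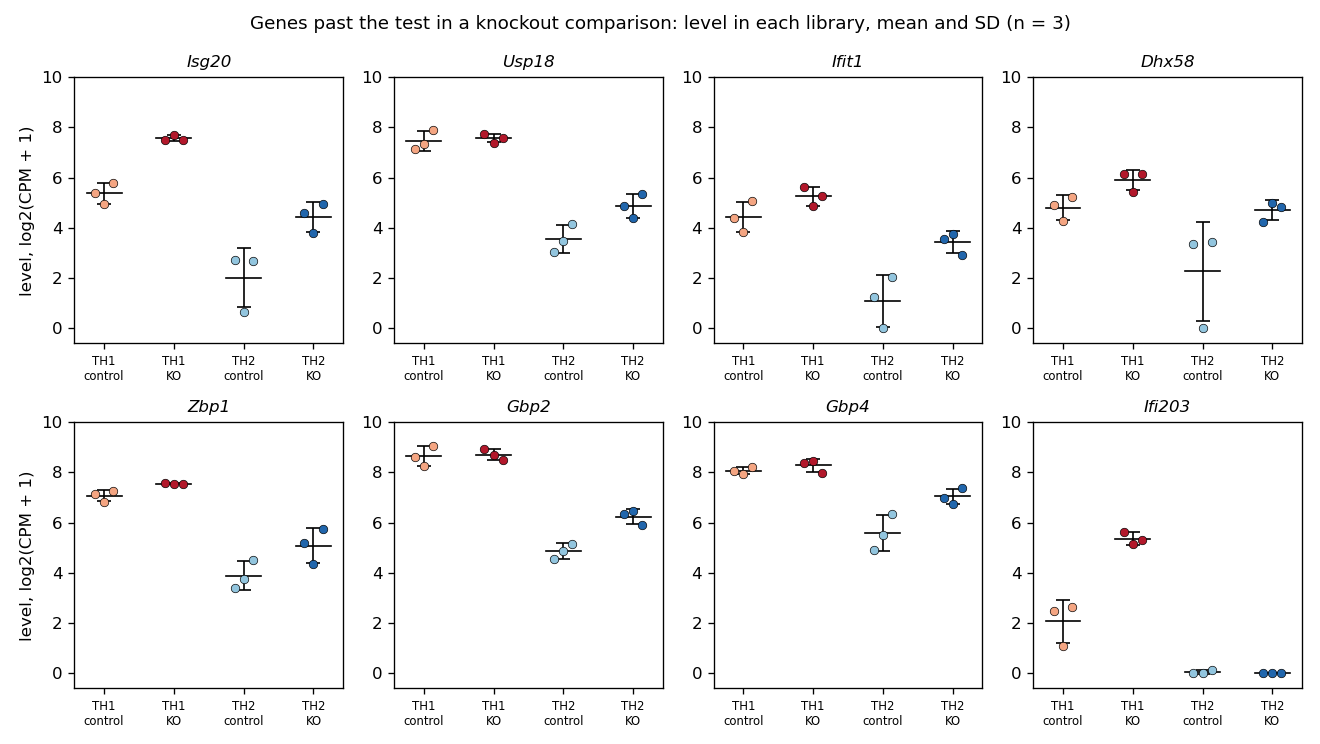
Levels of the 8 genes that rose in TH2 or TH1 KO cells, as log2(CPM + 1) in each library (points), with the mean (long bar) and SD (short bars) of each group of 3. Isg20 was higher in KO libraries of both subsets, Ifi203 was high in the TH1 KO libraries and at or near 0 in all TH2 libraries, and 1 TH2 control library had no read of Ifit1 or Dhx58.

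Of 7 other antiviral effectors, 6 were lower in TH2 than in TH1 control cells and 5 in KO cells, and none passed in a knockout comparison. Mx1, Mx2, Rsad2 and Samd9l reached the minimum level through TH1 libraries, so they were open to this comparison only because of their TH1 levels. Mx1 and Mx2 belong to a family of dynamin-like GTPases that block viral replication, but the annotation used here classes Mx2 as a polymorphic pseudogene. Whether either transcript encodes an active protein in these mice was not tested. Mx1 and Mx2 averaged 15.7 and 18.2 CPM in TH1 control cells and 0.402 and 0.695 CPM in TH2 control cells. Rsad2, which encodes viperin, averaged 12.1 CPM in TH1 and 1.29 CPM in TH2 control cells. Bst2, which encodes the tether that holds virions at the cell surface, was at 235 ± 53.5 CPM in TH1 and 138 ± 10.6 CPM in TH2 control cells (−0.75 ± 0.17, adjusted p = 0.0027), and its levels in KO cells, 225 ± 12.2 and 134 ± 15.5 CPM, were close to these. All 4 genes were lower in TH2 cells in both genotypes, but of these only Bst2 reached the minimum level in both subsets. Eif2ak2, which encodes the kinase PKR, was lower in TH2 than TH1 control cells (−0.91 ± 0.22, adjusted p = 0.0047), and in KO cells the difference did not pass (−0.43 ± 0.22, adjusted p = 0.16). Eif2ak2 and Trim30a, a TRIM family gene, were the 2 genes whose TH1 KO libraries lay wholly below TH1 control, with differences of −0.34 ± 0.22 and −0.35 ± 0.20 that did not pass (adjusted p = 0.67 and 0.60).

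Samd9l, which encodes an antiviral factor that restrains translation, came near to passing with the knockout. It was at 11.6, 2.55 and 7.40 CPM in TH1 control and 28.1, 43.6 and 22.3 CPM in TH1 KO libraries (2.11 ± 0.57, adjusted p = 0.094), and at 3.18, 1.14 and 9.86 CPM in TH2 control and 8.78, 16.7 and 14.3 CPM in TH2 KO libraries (1.59 ± 0.57, adjusted p = 0.13). It passed in neither comparison of subsets.

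Guanylate-binding proteins are large GTPases that coat vacuoles and bacteria inside cells. All 6 measured genes of the family were lower in TH2 than in TH1 cells in both genotypes, and 2 of the 6, Gbp2 and Gbp4, rose in TH2 KO cells. Gbp3, Gbp5 and Gbp6 reached the minimum level through TH1 libraries, so their place in the comparison of subsets depended on the cells where they were high. Gbp2 was at 22.2, 28.6 and 34.8 CPM in TH2 control and 81.4, 86.7 and 59.0 CPM in TH2 KO libraries, and at 391, 306 and 532 CPM in TH1 control and 487, 408 and 363 CPM in TH1 KO libraries. Both TH1 groups were above every TH2 library, and the TH2 KO libraries stood between. The rise in TH2 cells was 1.38 ± 0.22 (adjusted p = 0.00093, ratio of means 2.65), and it passed under all 22 alternative settings. In TH1 cells the difference was 0.06 ± 0.22 (adjusted p = 0.98). The effects of the subsets differed by 1.32 ± 0.31 (adjusted p = 0.058), a difference that passed without TH2 control 3 and also without TH2 KO 3.

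Gbp4 was at 29.4, 44.9 and 80.2 CPM in TH2 control and 126, 108 and 165 CPM in TH2 KO libraries. It was at 269, 244 and 295 CPM in TH1 control and 334, 350 and 254 CPM in TH1 KO libraries. As for Gbp2, the TH2 groups were apart and the TH1 groups overlapped. The rise in TH2 cells was 1.45 ± 0.25 (adjusted p = 0.0026), the difference in TH1 cells 0.21 ± 0.25 (adjusted p = 0.87) and the difference between these effects 1.24 ± 0.36 (adjusted p = 0.15), which among the settings tried passed only without TH2 control 3. The rise in TH2 cells did not pass with no variance trend (adjusted p = 0.067).

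Among the other guanylate-binding proteins, Gbp5, which is known for its part in inflammasome assembly, was at 0.849, 0.568 and 4.60 CPM in TH2 control and 10.8, 9.77 and 3.17 CPM in TH2 KO libraries (1.68 ± 0.47, adjusted p = 0.051). These groups overlapped, as KO 3 was below control 3. Without TH2 KO 3, or without TH2 control 3, Gbp5 passed. Gbp7 was at 9.23, 56.3 and 12.3 CPM in TH2 control and 33.1, 20.8 and 25.3 CPM in TH2 KO libraries (0.44 ± 0.39, adjusted p = 0.58), and control 2 was the highest of these 6 libraries. Without control 2 Gbp7 passed as higher in TH2 KO cells. In TH1 cells Gbp7 was at 431 to 605 CPM in control and 807 to 973 CPM in KO libraries, with no overlap (0.77 ± 0.39, adjusted p = 0.53). Gbp3 and Gbp6 averaged 5.70 and 3.32 CPM in TH2 control and 6.62 and 7.91 CPM in TH2 KO cells, and passed in neither knockout comparison. Reads that match several of these similar genes may have been split among them, since the sources used here do not give the gene counter.

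The immunity-related GTPases, a second family of GTPases that act on vacuoles, differed by subset, and none of them passed in a knockout comparison. Igtp was at 520 ± 114 CPM in TH1 and 151 ± 21.4 CPM in TH2 control cells (−1.77 ± 0.17, adjusted p = 7.2e-08), and at 558 ± 73.4 and 140 ± 17.9 CPM in KO cells (−1.99 ± 0.17, adjusted p = 1.4e-08). Irgm1 averaged 226 and 73.2 CPM and Irgm2 65.6 and 32.6 CPM in TH1 and TH2 control cells. Irgm2 did not pass in the comparison of subsets in KO cells (−0.68 ± 0.30, adjusted p = 0.10), where the other 4 did. Iigp1 averaged 23.6 CPM in TH1 control and 34.3 CPM in TH1 KO cells and was below 1 CPM in all TH2 libraries. It reached the minimum level through TH1 libraries. Ifi47 was at 115 to 137 CPM in TH1 control and 192 to 215 CPM in TH1 KO libraries, which did not overlap (0.69 ± 0.23, adjusted p = 0.20), while in TH2 cells it averaged 56.7 and 54.9 CPM. The annotated spans of Igtp and Irgm2 overlap on 1 strand, so reads in the shared part cannot be assigned to either gene with certainty.

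Parp9 and Parp14, which belong to the family that attaches ADP-ribose to proteins, and Dtx3l, the ubiquitin ligase that partners Parp9, were all lower in TH2 cells in both genotypes, and none passed in a knockout comparison. Mean levels in TH1 and TH2 control cells were 110 and 43.4 CPM for Parp9, 160 and 68.0 CPM for Parp14, and 251 and 136 CPM for Dtx3l. The annotated 5′ ends of Parp9 and Dtx3l overlap on opposite strands, and no source used here says whether counting used strand. Cxcl10, a chemokine that attracts TH1 cells through CXCR3, was at 18.6, 20.8 and 60.2 CPM in TH1 control and 72.9, 20.1 and 5.10 CPM in TH1 KO libraries. In TH2 cells it was at 0, 0 and 1.64 CPM in control and 0, 0.946 and 4.68 CPM in KO libraries. The TH1 KO libraries alone spanned the whole range of the TH1 control libraries, and neither knockout difference passed (−0.49 ± 0.79 in TH1 and 0.69 ± 0.79 in TH2 cells, adjusted p = 0.91 and 0.69). These were the widest standard errors among the 37 genes.

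Ifi203 belongs to the PYHIN family, whose members bind DNA in the nucleus or cytosol. It was at 4.59, 1.13 and 5.20 CPM in TH1 control and 48.9, 34.4 and 38.4 CPM in TH1 KO libraries, and among the 6 TH2 libraries 1 read was counted, in control 3. The TH1 KO libraries stood far above all others, and the gene reached the minimum level through them alone, so its presence among tested genes depended on that group. Ifi203 rose in TH1 KO cells (3.30 ± 0.60, adjusted p = 0.0063, ratio of means 11.2). Without TH1 control 2 the rise did not pass (2.81, adjusted p = 0.056), and without any 1 TH1 KO library the gene was not tested. The difference of effects between subsets was −3.35 ± 0.84 and did not pass (adjusted p = 0.090). Rtp4, which encodes a transmembrane protein that traffics receptors, was too low to test, with 0.3005 to 4.85 CPM in TH1 control, 7.50 to 11.6 CPM in TH1 KO and no read in any TH2 library. Ifi44 was at 0, 1.14 and 2.41 CPM in TH2 control and 2.22, 14.2 and 3.86 CPM in TH2 KO libraries (1.68 ± 0.56, adjusted p = 0.10) and at 31.0 to 92.1 CPM in TH1 libraries. Ifi35 averaged 95.9 and 51.5 CPM in TH1 and TH2 control cells, and Xaf1, an inhibitor of the apoptosis inhibitor XIAP, 40.3 and 15.8 CPM. Both were lower in TH2 cells in both genotypes and passed in neither knockout comparison.

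In single libraries many of these genes were high or low together. Among TH1 control libraries, control 3 was the highest for 28 of the 37 tested genes and control 2 the lowest for 29, whereas control 3 was highest for 34.2% of all tested genes. Among TH1 KO libraries, KO 1 was the highest for 28 of the 37, whereas it was highest for 38.0% of all tested genes, and KO 3 was the lowest for 23. Spread of this kind enters the standard error of each gene, but the counts over genes given above do not allow for genes moving together. TH2 control 2 held 0 reads of Ifit1, Dhx58, Rsad2, Mx1 and Cxcl10, and yet was the highest TH2 control library for Gbp7, for Xaf1 (29.1 CPM against 9.55 and 8.76) and for Parp14 (91.6 CPM against 50.0 and 62.4). TH2 control 1 likewise held 0 reads of Mx1 and Cxcl10. It also held 0 reads of Oasl2, Mx2, Iigp1 and Ifi44, all of which had reads in control 2. Leaving out TH2 control 2 gave 5 genes that rose in TH2 KO cells in place of 7. Dhx58, Ifit1 and Zbp1 no longer passed and Gbp7 then did. Leaving out TH2 KO 3 as well as TH2 control 2 gave 6 genes, of which 4 (Gbp2, Gbp4, Ifit1 and Isg20) were among the 7, with Gbp5 and Gbp7 added. In TH1 cells, leaving out TH2 control 2 gave 4 risen genes, with Gbp7 and Samd9l added. In the order given, these comparisons called 158 of 9051, 153 of 8957 and 124 of 9051 of all tested genes in either direction.

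Of the 10 interferon genes listed as ligands, Ifng alone was tested. Ifng was at 8190, 9985 and 9733 CPM in TH1 control and 4288, 4573 and 4708 CPM in TH1 KO libraries, and at 2.65, 23.3 and 1.75 CPM in TH2 control and 2.03, 3.94 and 1.65 CPM in TH2 KO libraries. The TH1 KO libraries were all below the TH1 controls (−1.04, adjusted p = 0.46), and TH2 control 2 was the highest TH2 library (TH2 difference −0.87, adjusted p = 0.33). Ifnb1, the gene of interferon-β, reached 3.55 CPM in TH1 KO 1 and at most 0.964 CPM elsewhere, and the other 8 ligand genes were at or below 0.986 CPM in every library. Of the 9 genes for receptors and their kinases, 8 were tested and none passed in a knockout comparison. In TH2 cells the KO libraries lay wholly above the control libraries for 3 of the 9 and wholly below for 0. The shares of all tested genes were 9.97% and 8.76%. Jak1 was at 183 ± 35.7 CPM in TH2 control and 235 ± 25.97 CPM in TH2 KO cells (0.37, adjusted p = 0.24). Jak2, which is a partner of the interferon-γ receptor, was at 1697 and 1793 CPM on average (0.09, adjusted p = 0.79). Jak2 was higher in TH2 than in TH1 control cells (2.06, adjusted p = 6.6e-10), the reverse of the interferon-stimulated genes. The receptor chains, named here after their values were seen, went in opposite directions between subsets. Ifngr1 was at 152 ± 25.9 CPM in TH1 and 23.7 ± 0.299 CPM in TH2 control cells (−2.62, adjusted p = 2.9e-08), and Ifngr2 at 13.5 ± 2.93 and 67.3 ± 8.24 CPM (2.25, adjusted p = 5.3e-06). By genotype, Ifngr2 stood at 73.7, 58.0 and 70.2 CPM in TH2 control and 92.9, 99.1 and 123 CPM in TH2 KO libraries, which did not overlap.

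Among 11 genes for sensing adaptors and kinases, 8 were tested and Sting1, which encodes the adaptor of the cytosolic DNA sensor, rose in TH2 KO cells from 232, 216 and 204 CPM to 319, 331 and 393 CPM (0.67, adjusted p = 0.0066), and passed whichever library was left out. It did not pass with no variance trend, with only the groups compared, or without TH2 control 2 and TH2 KO 3 together (adjusted p = 0.079, 0.0503 and 0.057). Its level in TH1 cells was 301 ± 11.7 CPM in KO and 329 ± 28.1 CPM in control libraries. Of 8 inhibitors of the pathway, 7 were tested and none passed in a knockout comparison. The phosphatase genes Ptpn2 and Ptpn1 were at 430 ± 92.1 and 204 ± 13.3 CPM in TH2 control and 528 ± 58.3 and 231 ± 47.2 CPM in TH2 KO cells. In a further list of 37 interferon-stimulated genes outside the 40, of which 36 were tested, the knockout in TH2 cells gave 0 that rose and 2 that fell. Ifitm3, which blocks entry of viruses, fell from 45.8, 40.4 and 37.7 CPM to 18.9, 18.1 and 4.82 CPM (−1.69, adjusted p = 0.0043), and Lgals3bp, a secreted galectin-binding protein, from 296, 367 and 241 CPM to 216, 195 and 144 CPM (−0.70, adjusted p = 0.027). Neither passed with no filter, with only the groups compared or with no variance trend (adjusted p = 0.061, 0.084 and 0.071 for Ifitm3 and 0.10, 0.093 and 0.13 for Lgals3bp), and Lgals3bp did not pass without TH2 control 2 or without TH2 KO 3 (adjusted p = 0.12 for each). The median TH2 knockout difference of the further list was −0.04, against 0.34 for the 37 tested genes of the set, and in TH1 cells it was 0.29, with none past the test. Of the further 36, 20 were lower in TH2 than in TH1 control cells and none was higher.

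Some marker genes moved with the genotype. The 5 TH1 markers, all detected in every group, summed to 11149 to 13417 CPM in TH1 control and 6689 to 6896 CPM in TH1 KO libraries. In TH2 cells they summed to 263 to 395 CPM in TH2 control and 496 to 544 CPM in TH2 KO libraries. That higher sum lay mostly in Il12rb2, at means of 312 and 512 CPM, while Ifng, Cxcr3 and Il18rap had lower means in TH2 KO cells. Cxcr3 and Il18rap had higher means in TH1 KO than in TH1 control cells, against the sum. The 6 TH2 markers summed to 2270 to 3329 CPM in TH2 control and 1461 to 1991 CPM in TH2 KO libraries, although the means of Il4 and Ccr4 were higher in TH2 KO cells. The 5 B cell markers summed to 3.75 to 7.12 CPM in TH2 control and 9.15 to 11.98 CPM in TH2 KO libraries, with Cd79b making up most of the latter sums at a mean of 10.6 CPM and Ms4a1 and Pax5 at 0. The 5 naive CD4 markers summed to 2433 to 2623 CPM in TH1 control and 1946 to 2002 CPM in TH1 KO libraries, although the mean of Tcf7 was higher in TH1 KO cells. In TH2 cells they summed to 911 to 1070 and 1045 to 1345 CPM, which overlapped. Among them, Ccr7 had means of 1231 and 755 CPM in TH1 control and KO cells and 356 and 558 CPM in TH2 control and KO cells. The part of these differences in the rise of the 7 genes in TH2 KO cells, or of Isg20 and Ifi203 in TH1 KO cells, was not tested. Myeloid markers summed to 12.9 to 32.4 CPM in TH2 control and 15.8 to 32.9 CPM in TH2 KO libraries, which overlapped, with Lyz2, Csf1r and Adgre1 at 0 in both groups. The comparison of TH2 KO with TH2 control cells and that of TH2 with TH1 control cells share the TH2 control libraries, so a low value in 1 of those libraries enters both.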

How the data were processed

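RNA-seq was performed on 12 libraries in 4 groups of 3. The authors amplified RNA with the Ovation RNA-seq System V2 and sequenced single reads. Per the labels, they trimmed with Trim Galore 0.50, aligned with STAR 2.6.0a to GRCm38 and used DESeq2 1.18.1; which gene counter and annotation they used is not stated. They deposited CPM per gene symbol with 0.0001 added, and this offset was subtracted here. A second sheet repeated them in 12 columns that were not used. The analysis used log2(CPM + 1) of the 9121 genes that reached 10 CPM in 3 or more libraries, and limma 3.58.1 in R 4.3.3 with a variance trend and 4 group means over all 12 libraries, with Benjamini-Hochberg adjustment, two-sided, at 0.05. Alternatives were another pseudocount, filters, scalings, variance model, subsets of libraries and a replicate block. The steps were tested on simulated data. CPM are not divided by gene length, so levels are not compared between genes. Coordinates are GENCODE M21 (GRCm38). All 40 genes are accounted for; library values are given for those past a knockout test and for Isg15, Isg20, Ifit1 and Cxcl10. In other lists, up to 4 genes past a knockout test are named, or the 2 of highest mean CPM. The genes and lists were chosen with earlier results of these data known. The transcription factors of the pathway are not reported here.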

Additional observations from a re-analysis of the deposited data

How the results depend on the processing

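The number of the 37 genes that rose in TH2 KO cells, 7 as reported, was 2 with no filter, 2 with only the groups compared in the fit, and 1 with no variance trend, and ranged from 5 to 9 when each library was left out in turn. In the order named, the first settings called 141 of 16414, 125 of 8456 and 76 of 9121 of all tested genes in either direction, against 327 of 9121 as reported. The number that rose in TH1 KO cells, 2 as reported, was 0 with a pseudocount of 0.25, 1 with no filter, 1 with no variance trend, 7 with only the groups compared, and 4 without TH2 control 2 and TH2 KO 3, and ranged from 0 to 4 with 1 library left out. Over all tested genes, 70 of 9121, 56 of 16414 and 29 of 9121 were called under the first of these settings, in that order. With only the groups compared 367 of 8366 were called, and 198 of 8957 without TH2 control 2 and TH2 KO 3, against 77 of 9121 as reported. For the difference between the knockout effects, 0 as reported, quantile scaling gave 1 and leaving out TH2 control 2 with TH2 KO 3 gave 1, in both cases Gbp2, and single libraries left out gave 0 to 2. Over all tested genes these settings called 48 of 9121 with quantile scaling and 37 of 8957 without those libraries. No gene fell in a knockout comparison under these settings. The number lower in TH2 cells ranged from 27 to 33 in control and 22 to 33 in KO cells with 1 library left out. The cause of these changes was not tested. Counted over the named genes, comparisons and settings, 57 tests no longer passed, 6 newly passed, and no called difference changed sign. The correlation of deviations between libraries of the same replicate number was between −0.066 and 0.026, so the numbers were not taken as pairs, and with the replicate number as a block 7 genes rose in TH2 and 2 in TH1 KO cells, the same genes as without it. Over all tested genes the count past the threshold was 327 in TH2 and 77 in TH1 KO cells, and 37 for their difference, and ranged over the settings from 76 to 383, 26 to 367 and 1 to 50. A count test with edgeR or DESeq2 was not run on the deposited CPM, although 100% of the low values were whole reads, within 0.1 read, once the added offset was removed. Limma without a variance trend was run in its place. Genes under about 3 reads in a library cannot be told from 0 at these depths, which holds for many of the 40 in TH2 cells.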
